A study of Mus musculus with 6 samples.

Results

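The genes described here are 10 genes that neurons switch on within minutes to hours of activity: Egr1, Egr2, Egr3, Egr4, Nr4a1, Nr4a2, Nr4a3, Arc, Npas4 and Ier2. They were taken as a list from the 21883 protein-coding genes of the RefSeq table of mouse build GRCm38.p6, which shares its coordinates with mm10. A peak was counted for a gene if it lay inside the span of that gene, or within 100 kb of it with no protein-coding gene nearer. This gave 82 of the 82442 peaks of the series. The tissue was limbic brain of adult C57/BL6 male mice. All were gonadectomized at 10 to 12 weeks of age and treated 3 weeks later. The estradiol group received 5 µg estradiol benzoate under the skin and the vehicle group corn oil, and nuclei were isolated after 4 hours. Both groups therefore lacked testicular hormone, and vehicle libraries report the receptor without injected ligand. Each group has 3 libraries of CUT&RUN, in which an antibody against estrogen receptor alpha (ERα) directs a nuclease to cut the DNA around the bound protein. The tissue mixes many cell types, so fewer cells with a bound site and less binding per cell cannot be told apart. Nothing in the labels says whether libraries of one group came from separate animals, so the spread between them may be technical.

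Many activity-induced genes, called immediate early genes, need no new protein for their induction. Calcium entry and growth factor signalling activate kinases, which act on factors already sitting at the promoters and enhancers of these genes, chiefly CREB at cAMP response elements and serum response factor at CArG boxes. The Egr genes encode zinc finger transcription factors, the Nr4a genes orphan nuclear receptors that bind DNA without a known hormone, and Npas4 a neuron-specific basic helix-loop-helix factor of inhibitory synapse formation. Arc encodes a synaptic protein that promotes removal of AMPA receptors, and Ier2 a nuclear protein of the early response. ERα is itself a nuclear receptor, which binds estrogen response elements directly or reaches DNA through other factors.

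RefSeq promoter windows of GRCm38.p6 matched 6 of the 10 genes (Egr2, Egr4, Nr4a1, Nr4a2, Nr4a3 and Npas4). In 4 of these the window held a called region, and those windows are shown because they give the letters under the peaks next to the start site. Each line is the 250 bases before the start site, 5′ to 3′ on the strand of the gene, with the bases of called regions in capitals. They are Egr2 at chr10:67537619-67537868 (plus strand), Egr4 at chr6:85513590-85513839 (minus strand), Nr4a1 at chr15:101266596-101266845 (plus strand) and Nr4a3 at chr4:48045055-48045304 (plus strand).
Egr2: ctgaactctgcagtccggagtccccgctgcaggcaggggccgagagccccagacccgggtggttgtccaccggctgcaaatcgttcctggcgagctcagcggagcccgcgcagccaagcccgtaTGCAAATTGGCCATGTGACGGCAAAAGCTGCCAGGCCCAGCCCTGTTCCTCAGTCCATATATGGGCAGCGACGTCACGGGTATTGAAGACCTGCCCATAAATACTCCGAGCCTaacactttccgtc
Egr4: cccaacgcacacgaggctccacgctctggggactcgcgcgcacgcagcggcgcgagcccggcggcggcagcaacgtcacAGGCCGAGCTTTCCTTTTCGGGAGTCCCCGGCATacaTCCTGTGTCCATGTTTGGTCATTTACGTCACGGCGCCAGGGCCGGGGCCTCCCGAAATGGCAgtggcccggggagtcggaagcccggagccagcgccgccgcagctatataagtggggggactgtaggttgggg
Nr4a1: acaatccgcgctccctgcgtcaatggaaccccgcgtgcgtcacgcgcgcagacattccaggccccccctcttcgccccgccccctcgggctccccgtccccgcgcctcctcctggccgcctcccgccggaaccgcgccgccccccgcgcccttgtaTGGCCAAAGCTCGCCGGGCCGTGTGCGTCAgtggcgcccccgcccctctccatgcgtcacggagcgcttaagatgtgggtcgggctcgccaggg
Nr4a3: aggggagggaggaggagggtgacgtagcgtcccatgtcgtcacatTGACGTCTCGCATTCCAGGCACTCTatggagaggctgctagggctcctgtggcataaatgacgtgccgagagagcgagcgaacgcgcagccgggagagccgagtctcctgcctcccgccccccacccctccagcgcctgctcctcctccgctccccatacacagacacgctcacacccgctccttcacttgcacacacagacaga

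The window searched ran to 50 bases past the start site, and a gene was counted if any of its windows matched. The core of the cAMP response element, TGACG, was found on either strand at all 6 genes, against 20.8% of the 32851 windows in the table. Egr2 had 5 windows, not all of them with the core, whereas the 20.8% counts single windows. The core lay inside a called region in 4 of the 4 windows shown. Those regions were weak, with 4 to 8 fragments at the summit in 1 or 2 libraries each. The share of all called regions that hold the core was not computed. In Egr2 the core stood at positions -111 to -107 and -55 to -51 relative to the start site, with a CCAAT box at -121 to -117 and a CArG box at -72 to -63, all inside the region. At Egr4 a core at -109 to -105 lay in the region held by estradiol replicate 3 alone. The neighbouring Egr4 region, held by estradiol replicates 1 and 2, had no core inside it. The Nr4a1 region held a core at -69 to -65 and the Nr4a3 region at -205 to -201, each region in a single library. CCAAT was present in 37.4% of all windows and the CArG box in 1.63%. The estrogen response element, in 0.0700% of all windows, was found in 0 of the 6, as were the full cAMP response element TGACGTCA (1.79% of all windows, and a longer form of the core), the AP-1 site TGANTCA (7.81%) and the Nr4a site AAAGGTCA (1.51%). The Egr site GCGNGGGCG (5.55%) was found in Nr4a1 and Nr4a2, and GGGCGG, the Sp and Klf site (35.7%), in 5 of 6, neither of them inside a called region. These matches describe the letters only. None of the 8 regions of these genes found in at least 5 libraries lay in a searched window. The counts therefore say nothing about the sequence under those regions.

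Depth was low throughout. The lists held 11082 to 17558 peaks in the estradiol libraries and 5421 to 20541 in the vehicle libraries. Vehicle replicate 1 had the shortest list and vehicle replicate 3 the longest. A peak is given here by its estimated number of summit fragments, worked out from the deposited fold enrichment and p-value, and by its −log10 q, the caller's own measure of significance. The smallest called summit in every library held 4 fragments and the median 6, so the lack of a peak does not show a lack of binding. For a check of the tissue label, peaks within 1 kb of a gene end were found in at least 1 library for 4 of 8 neuron markers, 2 of 4 astrocyte, 2 of 4 oligodendrocyte, 0 of 4 microglia and 0 of 3 endothelial markers, and 1 of 5 markers of organs outside the brain. Of all protein-coding genes 37.7% had such a peak, so marker lists this short do not decide the tissue label. Nor do such peaks measure expression.

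Overlapping peaks of the 6 libraries formed 29 regions at these genes, out of 34216 regions within 100 kb of a protein-coding gene. Of the 29, 18 had peaks in both groups, 6 in estradiol libraries only and 5 in vehicle libraries only. Over all regions these classes made up 37.4%, 31.0% and 31.6%. At the genes, 9 of 29 regions were found in a single library, against 56.3% of all regions. Regions found in at least 5 libraries numbered 8 of 29 (27.6%), with 14.6% of all regions in that class. Those in all 6 numbered 3 (10.3%), beside 8.21% of all regions. The median summit over the 82 peaks was 8 fragments, against 6 for all peaks.

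**Figure D1:**
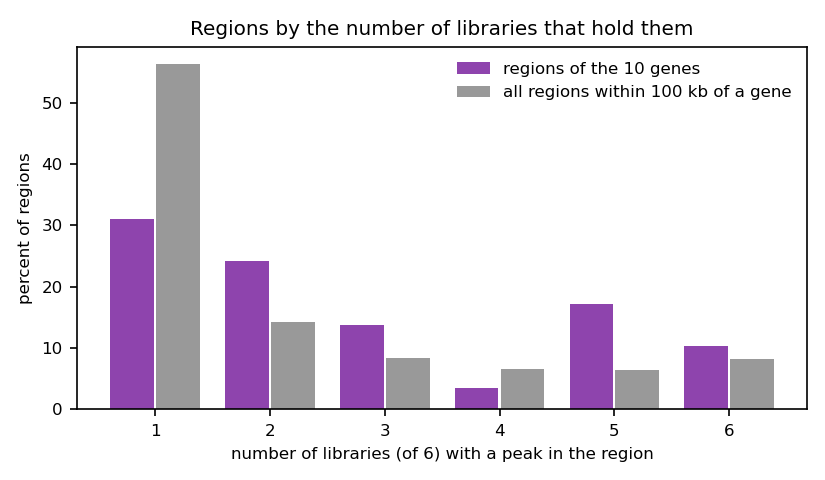
Percent of regions (y axis) by the number of libraries with a peak in the region (x axis), for the 29 regions of the 10 genes (purple) and for all 34216 regions within 100 kb of a gene (grey). Single-library regions make up 31.0% of the purple bars and 56.3% of the grey ones, and regions in 5 libraries 17.2% and 6.37%.

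The genes differed widely in how many peaks they drew. Egr1 had 20 peaks over the 6 libraries, Npas4 13, Nr4a1 11, Nr4a3 and Ier2 10 each, Egr3 8, Egr4 4, Egr2 and Arc 3 each, and Nr4a2 none. The stretch over which a gene was the nearest one differed as well. It was 29.5 kb for Egr1, 35.5 kb for Npas4, 36.2 kb for Nr4a1, 160.6 kb for Nr4a3 and 15.9 kb for Ier2. For Egr3 it was 22.7 kb, for Egr4 43.5 kb, for Egr2 108.9 kb, for Arc 34.6 kb and for Nr4a2 117.2 kb. Its relation to the number of peaks was not tested.

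**Figure D2:**
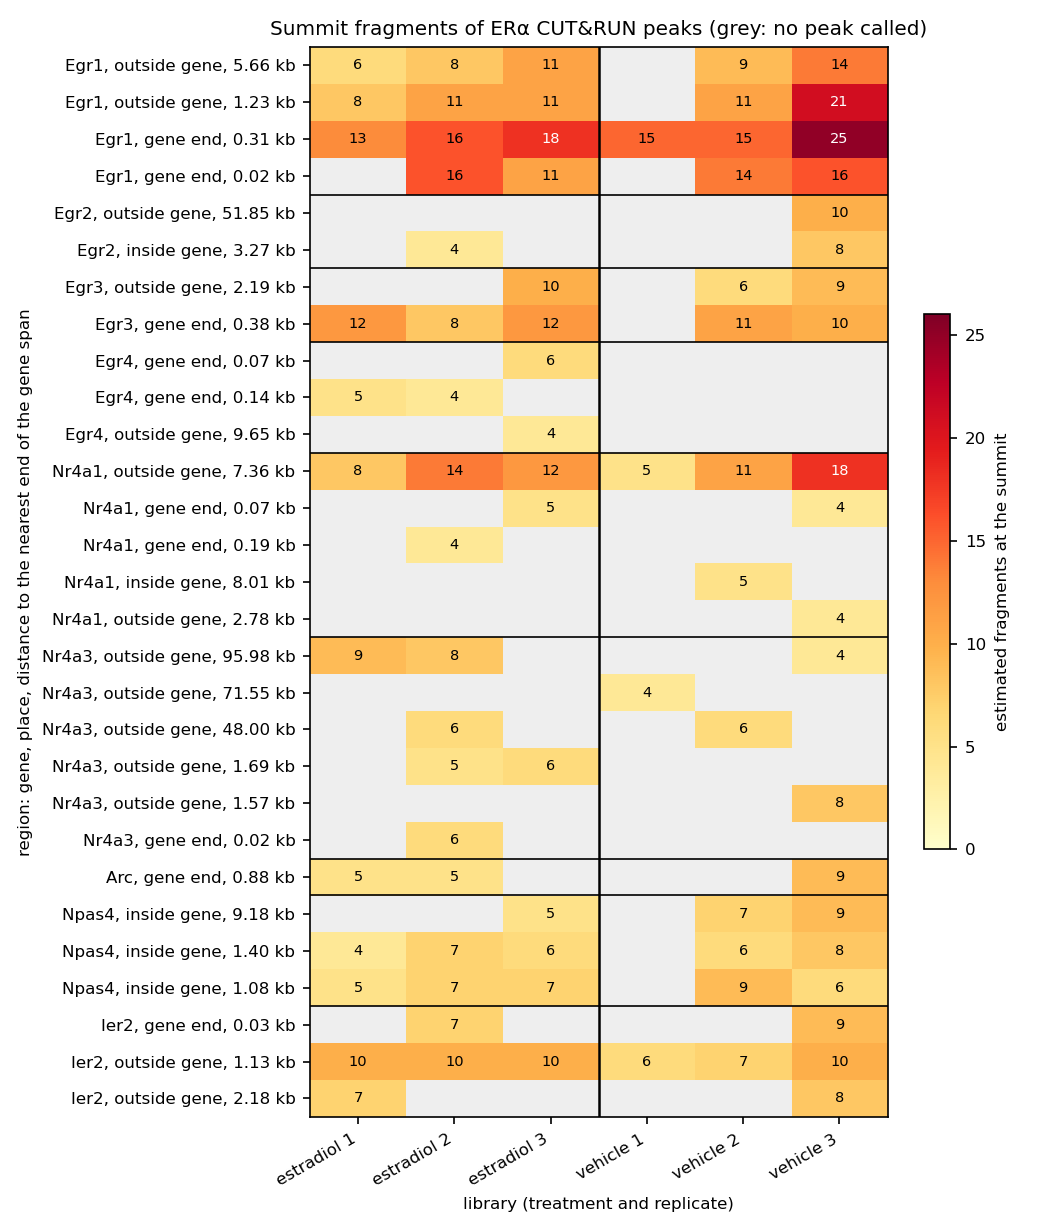
Estimated summit fragments (colour and number) of the peak in each of the 29 regions (rows, with gene, place and distance to the nearest end of the gene span in kb) and each library (columns, estradiol left and vehicle right); grey cells have no called peak. The Egr1 rows hold the highest numbers, up to 25, and the Egr4 rows are filled only in estradiol columns.

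Egr1, the zinc finger factor widely used as a marker of active neurons, had the most peaks of the list and the summit with the most fragments. It lies on chromosome 18 from 34861207 to 34864956, and its 4 regions all lay beyond the lower end of that span, between 22 bp and 5.66 kb away. The region 310 bp from the end (34860803 to 34860897) was held by every library. Its summit had 13, 16 and 18 fragments in estradiol replicates 1, 2 and 3, against 15, 15 and 25 in vehicle replicates 1, 2 and 3. The −log10 q was 9.52, 13.1 and 13.3 in the estradiol libraries and 12.0, 11.3 and 18.6 in the vehicle libraries. The groups overlapped, and the highest of the 6 values came from vehicle replicate 3. Within its own list this peak stood at the 84.8 to 92.8 percentile.

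A second Egr1 region 22 bp from the gene end (34861130 to 34861185) had 16 and 11 fragments in estradiol replicates 2 and 3, against 14 and 16 in vehicle replicates 2 and 3. Its −log10 q was 13.03 and 5.51 in those estradiol libraries, against 10.0 and 8.44 in those vehicle libraries, so the groups overlapped on both measures. The replicate 1 library of each group had no peak there. Farther out, the region 1.23 kb away had 8, 11 and 11 fragments in the estradiol libraries, against 11 and 21 in vehicle replicates 2 and 3. The region 5.66 kb away had 6, 8 and 11 in the estradiol libraries, against 9 and 14 in vehicle replicates 2 and 3. In both, the only library without a peak was vehicle replicate 1. Egr1 was also the only one of the 10 genes with a gene-end peak in every library, where gene end means within 1 kb of either end of the span. That is 1 of 10, with 9.39% of all protein-coding genes meeting the same rule.

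Egr3, a factor of the same family that acts in muscle spindle development and synaptic plasticity, had its peaks on one side as well. It lies on chromosome 14 from 70077317 to 70082613. A gene-end region 379 bp beyond the lower end (70076781 to 70076938) had 12, 8 and 12 fragments in estradiol replicates 1, 2 and 3, against 11 and 10 in vehicle replicates 2 and 3. The ranges overlapped, and vehicle replicate 1 had no peak. At 2.19 kb a further region held 10 fragments in estradiol replicate 3, against 6 and 9 in vehicle replicates 2 and 3.

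Egr2, known for its part in hindbrain patterning and myelination, was almost bare. It lies on chromosome 10 from 67534469 to 67542188. The region printed above (67537743 to 67537855) lay 3.27 kb from the nearest end of the span but 94 to 98 bases upstream of the start site used there, which is 1 of 5 the promoter table gives for Egr2. It held 4 fragments in estradiol replicate 2, against 8 in vehicle replicate 3, with no peak in the other 4 libraries. A region 51.9 kb away held 10 fragments in vehicle replicate 3 only.

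Egr4, the fourth factor of the family, was the 1 gene with more peaks in every estradiol library than in any vehicle library. It lies on chromosome 6 from 85511121 to 85513589, on the minus strand, so that its start site is the higher end. The numbers of peaks were 1, 1 and 2 in estradiol replicates 1, 2 and 3, against 0 in each vehicle library. The difference gave p = 0.1 in an exact two-sided permutation test over libraries, the smallest that 3 against 3 allows, so no single gene can reach 0.05. Over the 13492 genes with a peak, 1.03% were higher in this sense and 0.334% lower, and of the 9 listed genes with a peak 1 was higher and 0 lower. After Benjamini-Hochberg adjustment over all of them the exact permutation test called 0 genes, and 0 had an unadjusted p under 0.05.

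The Egr4 peaks were small. The region at 85513727 to 85513760 held 5 and 4 fragments in estradiol replicates 1 and 2 (−log10 q 3.34 and 2.08), with summits 155 to 167 bases upstream of the start site. Only 3 bases away, the region at 85513662 to 85513723 held 6 fragments in estradiol replicate 3 (−log10 q 3.86), with its summit 106 bases upstream. The 2 runs of capitals in the Egr4 line above are these regions. Counted apart, neither was present in all 3 estradiol libraries. Another region, 9.65 kb beyond the same end, had 4 fragments in estradiol replicate 3. With peaks of −log10 q under 5 left out, or with lists cut to the 5421 strongest peaks each, Egr4 no longer had more peaks in every estradiol library.

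**Figure D3:**
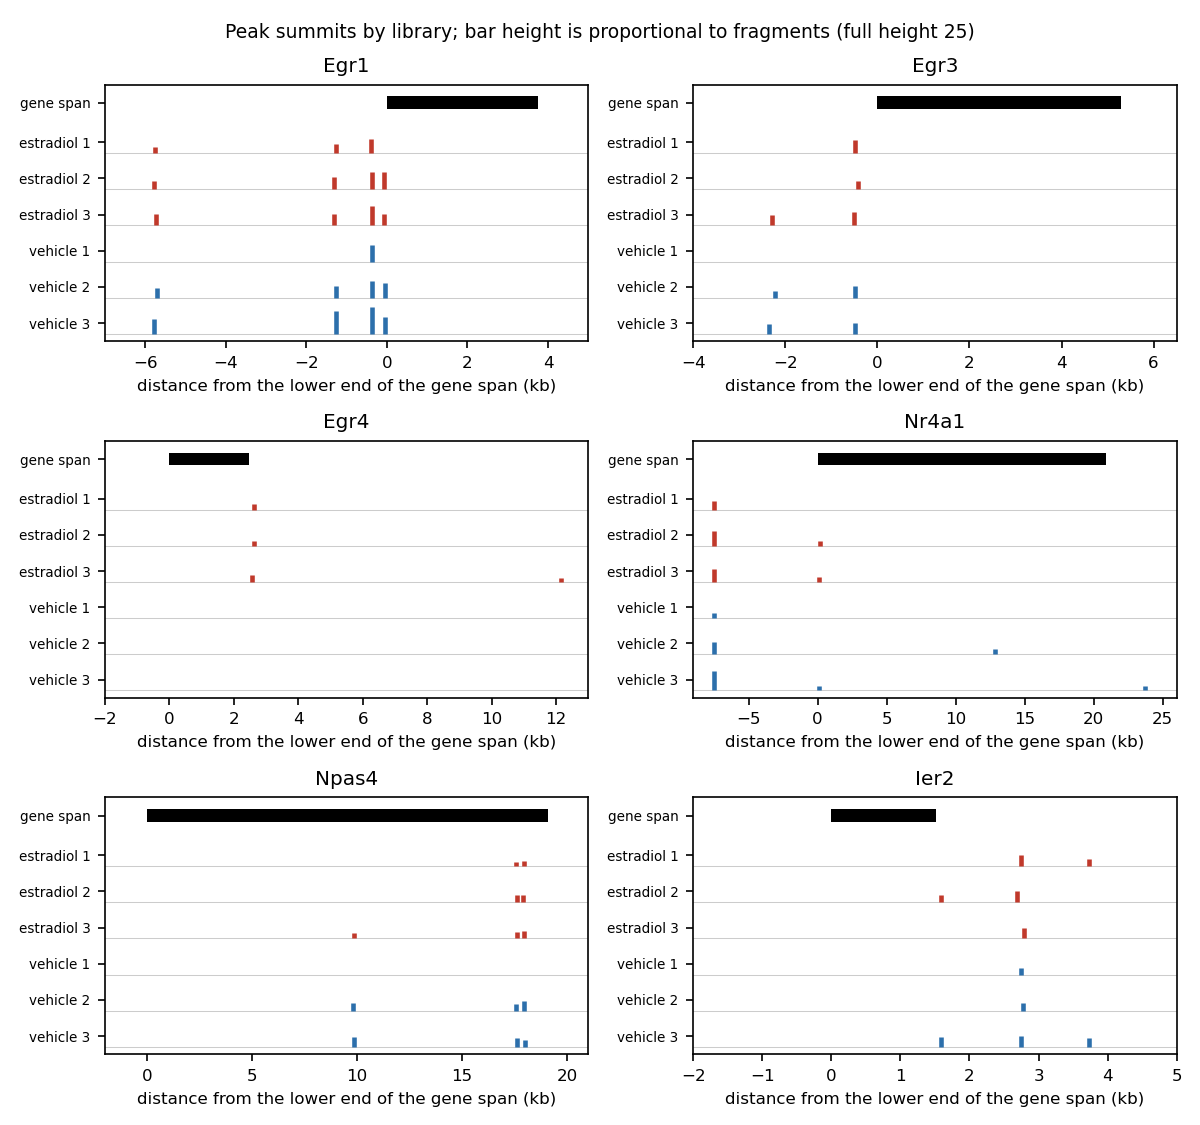
Position of peak summits for 6 of the genes, in kb from the lower end of the gene span (x axis), with 1 row per library (estradiol red, vehicle blue) and the gene span as a black bar; the height of a coloured bar is proportional to summit fragments, with 25 as full height. Egr1 and Egr3 peaks lie below the span, the Npas4 pair lies inside the upper part of its span, and Egr4 has bars in the 3 estradiol rows alone.

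Among the nuclear receptors, Nr4a1 (Nur77) had its steady site away from the gene. It lies on chromosome 15 from 101253902 to 101274795. The region 7.36 kb beyond the lower end (101246354 to 101246540) was held by every library, with summits 20.4 to 20.5 kb upstream of the start site given in the promoter table. It had 8, 14 and 12 fragments in estradiol replicates 1, 2 and 3, against 5, 11 and 18 in vehicle replicates 1, 2 and 3. The highest and the lowest of the 6 values both came from the vehicle group. The −log10 q ran from 7.03 to 16.3 in the estradiol libraries and from 3.26 to 20.5 in the vehicle libraries.

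The other Nr4a1 regions were near the smallest callable size. At the lower end of the span one region held 5 fragments in estradiol replicate 3, against 4 in vehicle replicate 3, and a neighbour held 4 in estradiol replicate 2. The promoter region printed above (101266752 to 101266781), with its summit 83 bases upstream of the start site, held 5 fragments in vehicle replicate 2 and no peak elsewhere. Vehicle replicate 3 had a further peak of 4 fragments 2.78 kb beyond the other end.

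Nr4a3 (NOR-1), on chromosome 4 from 48045078 to 48086447, had 6 regions, none in more than 3 libraries. The one 1.69 kb below the span (48043215 to 48043386) held 5 and 6 fragments in estradiol replicates 2 and 3 and no vehicle peak. A region 1.57 kb below the span held 8 fragments in vehicle replicate 3, so the same stretch drew peaks in both treatments. At the gene end, the printed region (48045100 to 48045124) held 6 fragments in estradiol replicate 2 alone. The region 96.0 kb away held 9 and 8 fragments in estradiol replicates 1 and 2, against 4 in vehicle replicate 3. The 2 remaining regions, at 71.5 and 48.0 kb, held 4 fragments in vehicle replicate 1 alone, and 6 in estradiol replicate 2 against 6 in vehicle replicate 2.

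For Nr4a2 (Nurr1), a factor required for midbrain dopamine neurons, no library had a peak that met the rule. It lies on chromosome 2 from 57106830 to 57124003, and the 3 peaks within 100 kb of it were nearer to Gm52512. Its promoter window held 4 TGACG cores and an Egr site.

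Npas4, on chromosome 19 from 4984353 to 5003439, had all of its 3 regions inside the span and more than 1 kb from its ends. The 2 regions at 5001887 to 5002038 and 5002178 to 5002359 lay 1.40 and 1.08 kb from the higher end of the span. They stood 12.0 to 12.4 kb upstream of the start site in the promoter table, which is inside the span. The first held 4, 7 and 6 fragments in the estradiol libraries, against 6 and 8 in vehicle replicates 2 and 3. The second held 5, 7 and 7, against 9 and 6 in vehicle replicates 2 and 3. In both the groups overlapped, and vehicle replicate 1 again had no peak. A region 4.20 to 4.22 kb upstream of the start site held 5 fragments in estradiol replicate 3, against 7 and 9 in vehicle replicates 2 and 3.

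Arc, on chromosome 15 from 74669081 to 74672570, had a single region 882 bp beyond its higher end. It held 5 and 5 fragments in estradiol replicates 1 and 2, against 9 in vehicle replicate 3. The highest value thus came from the vehicle group, and 3 libraries had no peak.

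Ier2, on chromosome 8 from 84661331 to 84662852, had a region in every library 1.13 kb beyond its higher end (84663981 to 84664196). Its summit held 10, 10 and 10 fragments in the estradiol libraries, against 6, 7 and 10 in vehicle replicates 1, 2 and 3. The estradiol values were at least as high as each vehicle value, with a tie at 10. At 32 bp from the gene end a region held 7 fragments in estradiol replicate 2, against 9 in vehicle replicate 3. Another, 2.18 kb away, held 7 in estradiol replicate 1, against 8 in vehicle replicate 3.

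The comparison of treatments found no region of these genes with peaks in every estradiol and no vehicle library (0 of 29, beside 0.678% of all regions) or the reverse (0 of 29, beside 0.126%), counts that are near those shares. With at least 2 of 3 estradiol libraries and no vehicle library, there were 2 (the Egr4 region with 5 and 4 fragments and the Nr4a3 region 1.69 kb away), beside 3.55% of all regions, and 0 the other way, beside 2.73%. When peaks within 500 bp were joined, the Egr4 gene-end regions became 1 region with peaks of 5, 4 and 6 fragments in the estradiol libraries and none in the vehicle libraries. It was then 1 of 24 regions, beside 0.853% of all joined regions. For the 8 regions found in at least 5 libraries, the fragment ranges of the groups overlapped in all 8. The 5 of them with a single library missing all lacked vehicle replicate 1, as did 74.7% of all regions found in exactly 5 libraries.

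Gene-end peaks of the 10 genes numbered 4, 8 and 5 in estradiol replicates 1, 2 and 3, against 1, 3 and 6 in vehicle replicates 1, 2 and 3. The means were 5.67 ± 2.08 in estradiol libraries and 3.33 ± 2.52 in vehicle libraries (SD, n = 3 each), and the groups overlapped. The difference was 4 peaks when replicates 1 and 2 were taken alone. It was -1 in replicate 3, whose peak names have another style and whose labels are shorter. Of the 10 genes, 4, 7 and 4 had a gene-end peak in the estradiol libraries, against 1, 2 and 5 in the vehicle libraries. Gene-end peaks over all genes numbered 4632, 5765 and 5696 in the estradiol libraries, against 2665, 5425 and 7053 in the vehicle libraries. Vehicle replicate 1 was thus the lowest library over all genes as well.

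Distal peaks, those farther than 1 kb from either end, numbered 8, 10 and 10 in the estradiol libraries, against 3, 10 and 14 in the vehicle libraries. The means were 9.33 ± 1.15 in estradiol libraries and 9 ± 5.57 in vehicle libraries (SD, n = 3 each). Their difference of 0.333 was smaller than the SD of either group. It was 2.5 within replicates 1 and 2 and -4 in replicate 3. Of the 55 distal peaks, 16 lay inside a gene and 39 outside. Those inside include the Egr2 and Nr4a1 peaks 94 to 98 and 83 bases upstream of a start site. Distal here therefore means far from the ends of the span, not from every start site.

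As a share of all peaks of the 10 genes in a library, gene-end peaks made up 33.3%, 44.4% and 33.3% in the estradiol libraries, against 25%, 23.1% and 30% in the vehicle libraries. The means were 37.0% ± 6.42 in estradiol libraries and 26.03% ± 3.57 in vehicle libraries (SD, n = 3 each), and the groups did not overlap. The estradiol shares rest on 4 of 12, 8 of 18 and 5 of 15 peaks and the vehicle shares on 1 of 4, 3 of 13 and 6 of 20. Over the peaks of all genes the same share was 46.1%, 45.0% and 36.3% in the estradiol libraries, against 53.6%, 43.5% and 37.3% in the vehicle libraries. At the 10 genes the share differed by 14.9 points with replicates 1 and 2 alone, and by 3.33 points in replicate 3. It turned to -23.8 when only peaks with −log10 q of at least 5 were kept, and came to 1.83 with lists of equal length. At that threshold vehicle replicate 1 kept only 1 peak, the Egr1 gene-end peak (−log10 q 12.0), so its share was set by that peak. Its other peaks had −log10 q of 3.26, 2.66 and 2.02.

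All peaks together came to 12, 18 and 15 in the estradiol libraries, against 4, 13 and 20 in the vehicle libraries. The lowest and the highest number came from the shortest and the longest list. Scaled to 10000 peaks of the list they were 10.8, 12.7 and 8.54 in the estradiol libraries, against 7.38, 9.48 and 9.74 in the vehicle libraries. The difference of 1.84 per 10000 was smaller than the SD of the estradiol libraries (2.10) and larger than that of the vehicle libraries (1.29), with overlapping groups. Within replicates 1 and 2 it was 3.36, and in replicate 3 it was -1.19.

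**Figure D4:**
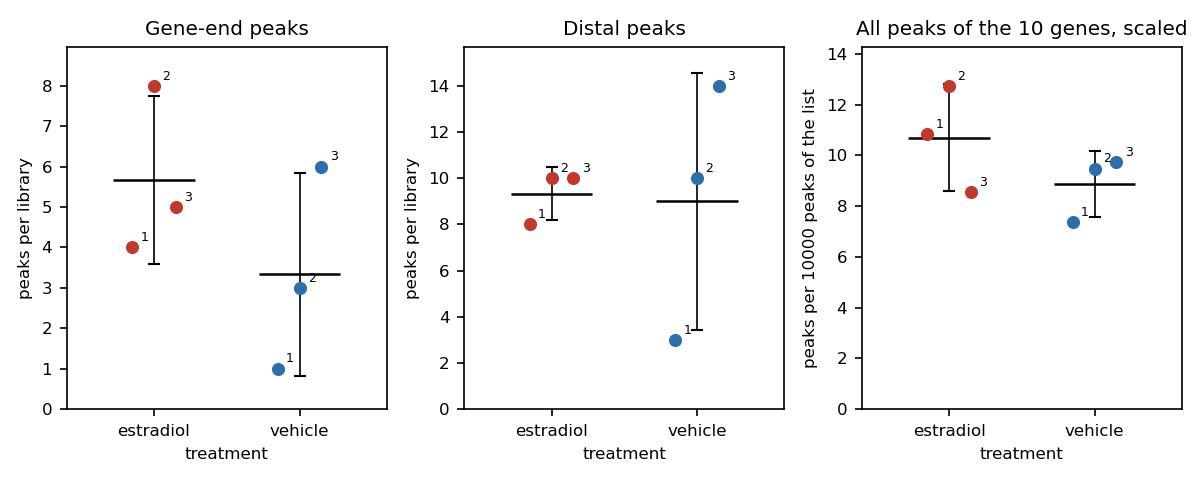
Gene-end peaks, distal peaks and all peaks of the 10 genes per 10000 peaks of the list (y axes) for each library, with estradiol left and vehicle right; points are libraries numbered by replicate, lines are group means and error bars are SD (n = 3). In each panel the groups overlap, and vehicle replicate 1 is the lowest point.

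By region, 10 of 29 lay at a gene end (34.5%), beside 27.4% of all regions. Another 5 lay inside the gene (17.2%, beside 42.8%) and 14 outside it (48.3%, beside 29.8%). Among regions in at least 2 libraries the gene-end count was 7 of 20 (35.0%), beside 43.5%. Of the 3 regions in all 6 libraries, the Egr1 one was at a gene end and the Nr4a1 and Ier2 ones outside, whereas 72.7% of all such regions were at a gene end. The Ier2 region lay 1.13 kb from the end, just past the 1 kb limit, and would count as gene end at 2000 bp. The share of all regions at that wider limit was not computed.

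A wider list held 32 other activity-induced genes. Of these, 23 had a gene-end peak in at least 1 library, beside 37.7% of all protein-coding genes, and 6 in all 6, beside 9.39%. In numbers of peaks, 0 were higher (beside 1.03%) and 0 lower (beside 0.334%) in every estradiol library. Of their 105 regions, 0 were in every estradiol and no vehicle library (beside 0.678%), 0 the reverse (beside 0.126%) and 11 in all 6 (beside 8.21%). The counts of 0 are near those shares. The 3 with the highest summits at such a shared gene-end region were Klf6, a zinc finger factor, Per1, a clock gene that is also induced by activity, and Jun, a subunit of AP-1. The Klf6 region had 32, 42 and 91 fragments in the estradiol libraries, against 25, 48 and 95 in the vehicle libraries. Per1 had 31, 36 and 34 in the estradiol libraries, against 24, 33 and 54 in the vehicle libraries. At Jun they were 18, 26 and 19 in the estradiol libraries, against 15, 23 and 16 in the vehicle libraries. The groups overlapped at all 3.

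Of 22 upstream regulators and partners of the 10 genes, 13 had a gene-end peak in at least 1 library and 3 in all 6, beside the same 37.7% and 9.39% of all genes. The 3 were Mrtfa, a coactivator of serum response factor, Elk1, a partner of the same factor, and Crem, a relative of CREB. Mrtfa had 18, 18 and 17 fragments in the estradiol libraries, against 8, 15 and 25 in the vehicle libraries. For Elk1 they were 7, 8 and 15, against 8, 9 and 19 in the vehicle libraries, and for Crem 7, 8 and 7, against 6, 13 and 8 in the vehicle libraries. Among the 22, 0 were higher (beside 1.03% of genes) and 0 lower (beside 0.334%). Of their 86 regions, 0 were in every estradiol and no vehicle library (beside 0.678%) and 0 the reverse (beside 0.126%).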

How the data were processed

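CUT&RUN peak lists of 6 libraries (3 estradiol, 3 vehicle) were analysed. Tools listed in the submitters' processing notes, with no version or role, are MACS2, Bowtie2, cutadapt, SAMtools, Picard and deepTools, and the build is mm10. Use of a control library is not stated in what was read here. The deposited lists give each peak an integer score, a fold enrichment (a ratio over background at the summit), a −log10 p-value and a −log10 q-value. These are the authors' own values for single peaks, used here to describe or filter peaks within a list. The smallest −log10 q per list was 2.00 to 2.01.

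Summit fragments were computed from the deposited fold and p-value, assuming a pseudocount of 1 and a Poisson upper tail. For 100% of peaks a whole number returned the deposited −log10 p to within 0.0002. These counts are estimates that rest on that formula. Coordinates are 1-based. Peaks overlapping or touching by 1 bp were merged into regions. Gene end means within 1000 bp of either end of the span, and distal all other peaks. The gene table gives no strand. Strand and start sites came from RefSeq promoter windows, and motifs were searched on both strands. The number of peaks per gene was tested over all 13492 genes with an assigned peak, by exact permutation with Benjamini-Hochberg adjustment. Sums over the 10 genes are descriptions with no test.

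The members and lists were chosen with earlier results of these data known. All 10 genes are described, with the regions held by most libraries, all shared regions and those of one group; from each further list, the 3 genes with the highest median summit at a gene-end region in all 6 libraries. Replicate 3 of both groups has another style of peak name. Its libraries were pooled with the others in the main comparisons, with no term for a batch. They were split off only in comparisons chosen after seeing the data. Alternatives were a stricter threshold, lists of equal length, other distances and merging rules, a replicate block, and each library left out. Scripts were tested on simulated peaks and used Python 3.11.15, pandas 2.3.3 and SciPy 1.17.1.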

Additional observations from a re-analysis of the deposited data

How the results depend on the processing

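Of 150 recomputed values, 108 stayed within the spread between libraries or, for counts, within 1.5 times, and 42 moved. With peaks of −log10 q of at least 5 alone, the estradiol minus vehicle difference was -0.333 for gene-end peaks and -23.8 points for the gene-end share, 1 region of the 10 genes was in all libraries, and 67 genes of all genes were higher in every estradiol library and 10 lower. The gene-end share at that threshold rests on 1 peak in vehicle replicate 1. With lists of equal length the share differed by 1.83 and 79 genes were higher. Regions in every estradiol and no vehicle library numbered 1 when peaks within 500 bp were joined and 2 when 2 of 3 libraries sufficed. Regions in all libraries numbered 1 when a peak had to cover 50% of the region, and 2 genes had a gene-end peak in all libraries at 2000 bp. The cause was not tested.

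Pairing libraries by replicate number (the replicate block) cannot alter a difference of means over complete pairs, which is 2.67 for all peaks, 2.33 for gene-end, 0.333 for distal, 1.84 per 10000 and 11.01 points for the share. These 5 values are among the 108. With the block, 344 genes were higher and 92 lower in every pair. The numbers are not stated to pair animals. The mean overlap (Jaccard index of regions) was 0.320 between same-numbered and 0.288 between differently numbered libraries of the 2 groups.

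With the following splits, chosen after seeing the data, replicates 1 and 2 alone gave 3 regions in estradiol only, 908 genes higher and 166 lower. Replicate 3 alone gave differences of -5 for all peaks, -1 for gene-end, -4 for distal, -1.19 per 10000 and 3.33 points, 3 regions in estradiol only, 8 in vehicle only and 12 in both, 3 genes with a gene-end peak in both, and 2633 genes higher and 5006 lower. The counts of genes higher or lower are out of the 13492 genes with a peak in any library. Shares of all regions in these classes were not computed for the splits, so the region counts have no background beside them. Of the 10 genes, 3 were higher in replicates 1 and 2 alone, beside 908 of 13492. In replicate 3 (1 library per group) 1 was higher and 5 lower, beside 2633 and 5006. Egr4, with no vehicle peak, stays higher under any subset of libraries by construction.

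With each library left out, the differences ran from -1.5 to 6.5 for all peaks, 1.17 to 3.67 for gene-end, -2.67 to 2.83 for distal, 0.822 to 2.92 per 10000 and 7.31 to 12.999 points. Regions in all libraries ran from 3 to 8, regions in estradiol only from 0 to 1, genes with a gene-end peak in all from 1 to 2, genes higher from 150 to 657 and genes lower from 71 to 660. Shares of all regions in these classes were not computed with a library left out. Leaving out vehicle replicate 1 gave an end of several ranges. Without it the difference was -1.5 for all peaks and -2.67 for distal, 8 regions were in all libraries and 660 genes were lower. Without vehicle replicate 3 the difference was 6.5 for all peaks and 2.83 for distal, the other end of both ranges. These shifts of the differences stayed within the spread between libraries. Genes higher numbered 493, 302 and 217 without estradiol replicates 1, 2 and 3, and 248 and 657 without vehicle replicates 2 and 3. Genes lower numbered 71, 95 and 120 without the same estradiol libraries, and 112 and 71 without vehicle replicates 2 and 3. Summits of 4 to 25 fragments limit the comparisons of the 10 genes.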
